A study of Mus musculus with 18 samples.

Results

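The genes described here are 42 genes of mitosis and the mitotic spindle, measured by RNA sequencing in mouse LSK cells (bone marrow cells that lack lineage antigens and carry Sca1 and cKit, the fraction that holds hematopoietic stem cells and multipotent progenitors). They were chosen by name for their known roles, with earlier results of these data known. All 42 were found once each, among 25601 distinct gene names, in both deposited tables, which write gene names in capitals (MKI67, CCNB1, PLK1, KIF23, BUB1B, TTK); mouse symbols are used here. One table holds 12 libraries of cultured cells and the other 6 libraries of freshly sorted cells, with 3 libraries in each of 6 groups. All mice were C57Bl/6. Irradiated mice had received 2.5 Gy from a Cs-137 source and had recovered for at least 9 weeks, and control mice are labelled as normal. The 4 cultured groups were irradiated with DL1 (the usual abbreviation of the Notch ligand Delta-like 1), control with DL1, irradiated without DL1 and control without DL1. Each culture began with 200 LSK cells of 1 mouse and ran for 6 days with mouse stem cell factor and human Flt3 ligand, interleukin-11 and interleukin-6 in every group. Its cells were then sorted again as LSK cells, so that the cultured libraries describe only progeny that still carried the LSK surface markers. The 2 freshly sorted groups, irradiated and control, held cells pooled from 3 mice per library and had no culture. How DL1 was presented is not given in the sources used here, nor whether equal replicate numbers mark cultures of 1 mouse, and p-values therefore measure the spread between these samples.

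Mitosis begins when cyclin A and B bind Cdk1 and Cdc25 phosphatases remove the inhibitory phosphates from it. Aurora and Polo kinases then build the spindle, kinetochores tie each centromere to its microtubules, and the spindle assembly checkpoint holds the anaphase-promoting complex and its activator Cdc20 in check until every chromosome is attached. Separase opens the chromatid pairs, and the central spindle places the cleavage furrow. Most of these genes are transcribed in G2 and M phase and silenced in quiescent cells, and most adult stem cells of the LSK fraction rest outside the cycle while its multipotent progenitors divide often.

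The promoters of such genes carry 2 short elements known from work in mammalian cells, the cell cycle genes homology region, written here as TTTGAA or TTCGAA, and the CCAAT box bound by the factor NF-Y. RefSeq windows of 300 bases in the build GRCm38.p6, which run from 250 bases before the start of the transcript to 50 bases after it, were matched by symbol for 36 of the 42 genes. With both strands searched, 30 of the 36 (83.3%) held TTTGAA or TTCGAA, against 16.7% of the 7598 genes tested in the cultures that had a window and 21.7% of all 27025 genes with one. CCAAT or its reverse was in 28 of 36 (77.8%), against 43.6% of the genes tested in the cultures and 41.1% of all genes. Both elements were in 26 of 36 (72.2%), against 7.12% of the genes tested in the cultures and 8.61% of all genes. Of the wider list of other mitotic genes, 82 had a window, and the shares were 45.1% for TTTGAA or TTCGAA, 62.2% for CCAAT and 34.1% for both. Among 19 S phase genes with a window they were 21.1%, 63.2% and 15.8%. TTCGAA reads the same on both strands, matches to the 2 motifs could overlap at their ends, and a match is a description of letters only. In all, 4 genes, Birc5, Mad2l1, Nuf2 and Nusap1, had neither motif in the window.

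The 5 windows printed here run 5′ to 3′ on the strand of the gene, with every match to either motif on either strand in capitals. They are Mki67, the gene with the largest decrease in irradiated cultures, Ccnb2 and Plk1, 2 regulators of mitotic entry, Kif23, the gene with the largest increase with DL1, and Ttk, a checkpoint kinase gene.
Mki67, chr7:135716330-135716629, minus strand: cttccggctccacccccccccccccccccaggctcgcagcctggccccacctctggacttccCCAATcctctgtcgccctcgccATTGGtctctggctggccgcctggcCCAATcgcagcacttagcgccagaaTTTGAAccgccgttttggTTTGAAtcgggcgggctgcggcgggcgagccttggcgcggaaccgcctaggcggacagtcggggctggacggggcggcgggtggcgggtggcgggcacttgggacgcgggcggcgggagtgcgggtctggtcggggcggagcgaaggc
Ccnb2, chr9:70421505-70421804, minus strand: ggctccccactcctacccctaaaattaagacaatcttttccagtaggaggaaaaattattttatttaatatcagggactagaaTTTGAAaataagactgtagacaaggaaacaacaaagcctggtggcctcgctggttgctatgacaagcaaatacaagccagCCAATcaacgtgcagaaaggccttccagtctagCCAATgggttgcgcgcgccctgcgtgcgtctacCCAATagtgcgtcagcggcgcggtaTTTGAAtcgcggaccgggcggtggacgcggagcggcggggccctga
Plk1, chr7:122159185-122159484, plus strand: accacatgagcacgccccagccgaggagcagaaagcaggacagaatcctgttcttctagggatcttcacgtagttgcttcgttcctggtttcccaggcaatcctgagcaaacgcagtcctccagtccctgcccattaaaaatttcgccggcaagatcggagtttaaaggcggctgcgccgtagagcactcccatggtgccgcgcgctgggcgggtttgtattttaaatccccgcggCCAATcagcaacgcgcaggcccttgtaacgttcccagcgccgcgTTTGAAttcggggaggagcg
Kif23, chr9:61946750-61947049, minus strand: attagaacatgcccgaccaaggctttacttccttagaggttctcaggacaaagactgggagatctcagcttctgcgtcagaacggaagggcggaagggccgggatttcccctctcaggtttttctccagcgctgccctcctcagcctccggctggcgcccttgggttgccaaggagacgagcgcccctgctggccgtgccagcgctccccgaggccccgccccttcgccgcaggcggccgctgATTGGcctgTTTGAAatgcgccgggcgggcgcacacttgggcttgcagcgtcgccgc
Ttk, chr9:83834439-83834738, plus strand: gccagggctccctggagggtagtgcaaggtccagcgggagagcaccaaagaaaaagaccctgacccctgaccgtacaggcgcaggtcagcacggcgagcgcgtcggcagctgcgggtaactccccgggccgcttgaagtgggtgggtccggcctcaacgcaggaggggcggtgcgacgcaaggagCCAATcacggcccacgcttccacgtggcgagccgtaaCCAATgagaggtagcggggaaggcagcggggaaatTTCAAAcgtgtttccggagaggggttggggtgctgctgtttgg
The Ccnb2 window holds 3 CCAAT boxes that lie between 2 TTTGAA, and Plk1 and Kif23 hold 1 of each. Mki67 has 3 CCAAT boxes and 2 TTTGAA further upstream. The most CCAAT matches, 6, were in the window of Top2a, beside 4 of the other motif. Ttk, which passed no test, holds both elements as Kif23 does.

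Levels are given as FPKM (fragment counts scaled by transcript length and by library size) as the authors deposited them. A change is a difference of mean log2(FPKM + 1), given ± its standard error. A gene rose or fell where limma's p, adjusted over all genes tested in that table by the Benjamini-Hochberg method, was under 0.05. All 42 genes were above 0 in every library and passed the filter of a mean of at least 1 FPKM in both tables, together with 12011 genes tested in the cultures and 12890 in freshly sorted cells. Relative depth, read from the steps between low values, ran from 0.488 (irradiated replicate 2 with DL1) to 1.09 in the cultures and from 0.644 to 1 in freshly sorted libraries. The sorted identity held at the RNA level in part. Kit was at 31.6 to 40.2 FPKM in cultured and 97.5 to 119 FPKM in freshly sorted libraries, and Ly6a, which encodes Sca1, was at 432 to 628 FPKM in cultured and 110.2 to 211 FPKM in freshly sorted libraries. The T lineage genes Cd3e, Cd4 and Cd8a averaged under 0.5 FPKM in each cultured group and 0.463 to 2.25 FPKM in the freshly sorted groups. The myeloid lineage antigen gene Itgam was at 97.8 to 238 FPKM in cultured and 16.3 to 32.7 FPKM in freshly sorted libraries, and Ly6g reached 1.02 FPKM in cultured and 14.4 FPKM in freshly sorted libraries. Protein-coding genes on the opposite strand share exon sequence with 7 members (Ccna2, Cdc20, Cdc25b, Kif20a, Kif4, Nusap1 and Prc1), and since the library kit does not mark strand, their reads could not be told apart.

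**Figure D1:**
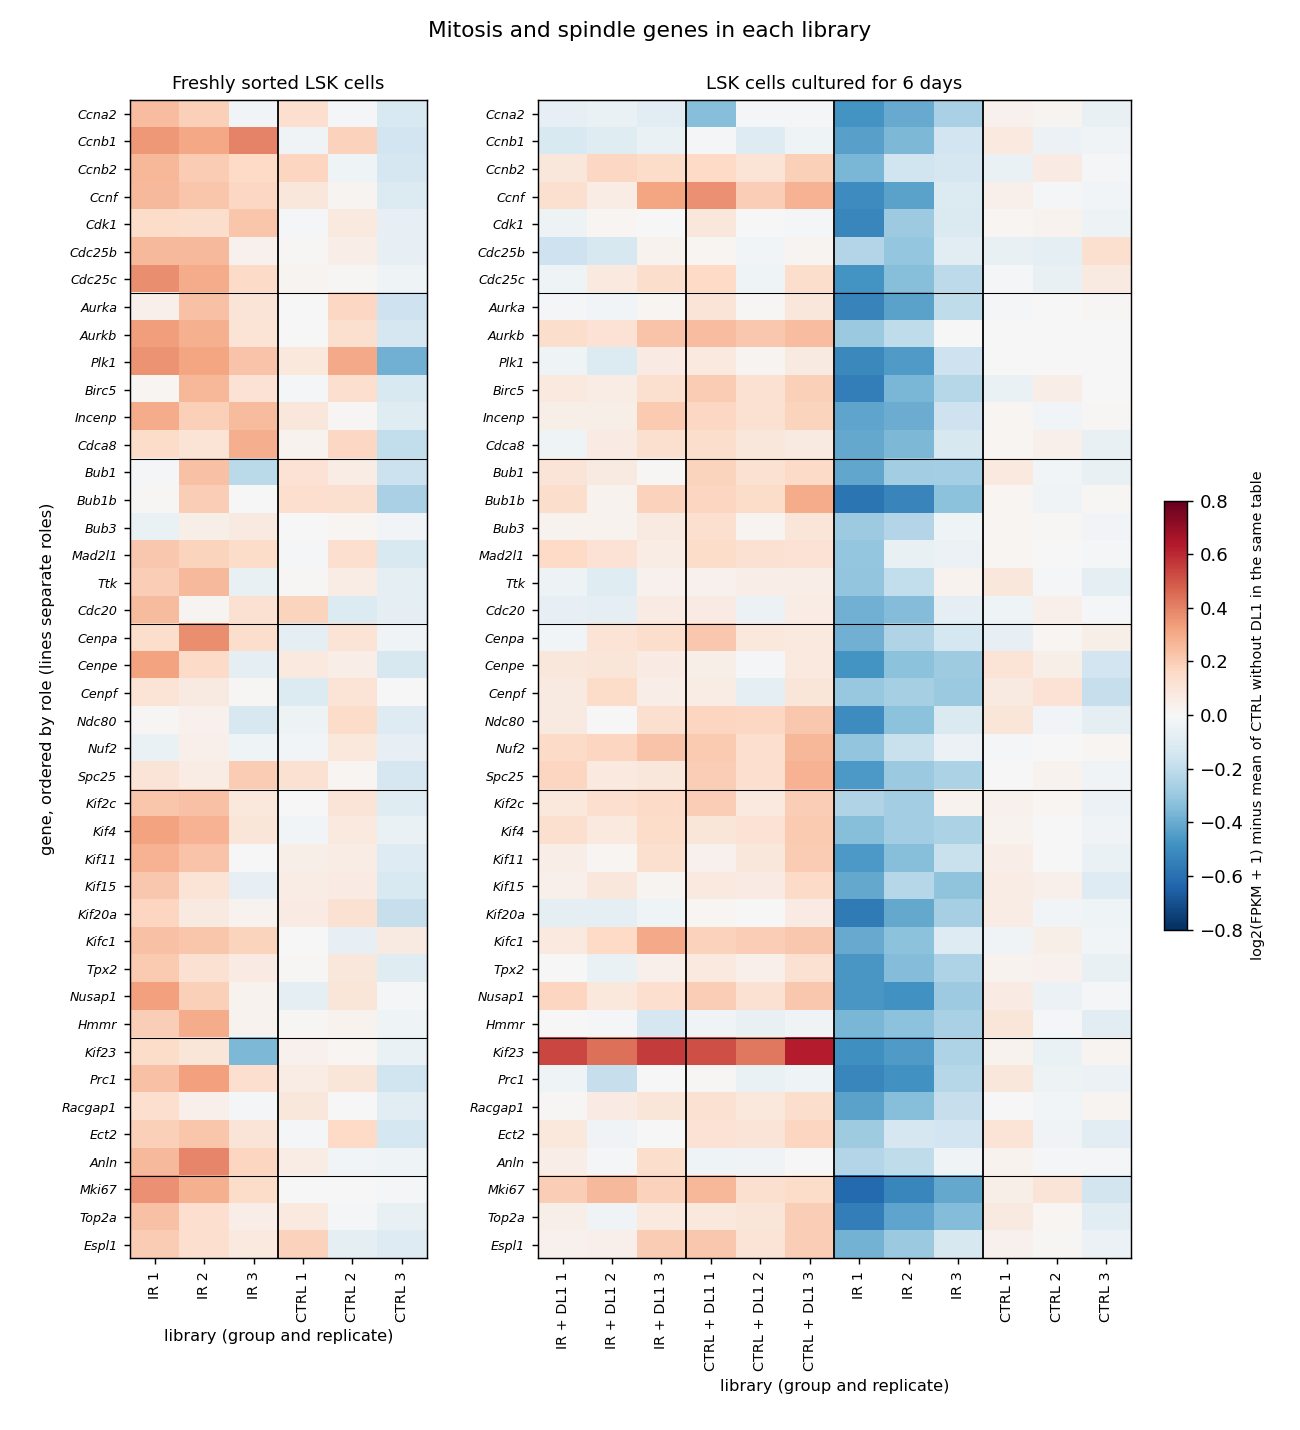
Level of each of the 42 genes (rows, by role) in each library (columns), as log2(FPKM + 1) minus the mean of the control libraries without DL1 in the same table, red for higher and blue for lower. In the cultures the 3 irradiated libraries without DL1 are blue in nearly every row, the palest being replicate 3, and Kif23 is red in all 6 libraries with DL1; freshly sorted irradiated libraries are mostly pale red.

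The first comparison asked how LSK cells of irradiated mice differ from those of control mice after 6 days of growth without DL1. Of the 42 mitotic genes, 36 fell and 0 rose in irradiated cultures without DL1 against control cultures without DL1. Over all genes tested, 15.9% fell, with 1659 genes higher and 1909 lower (2002 and 1477 with median-ratio scaling). The median log2 fold change of the 42 was -0.32, against -0.03 over all genes, and all 42 values were negative, from -0.52 to -0.14. Summed over the 42 genes, the level was 1480, 1596 and 1777 FPKM in irradiated cultures, against 2061, 2044 and 1981 FPKM in control cultures, so the groups did not overlap. Among the 26 genes with both promoter motifs the median was -0.31, and among the 10 with a window lacking one or both it was -0.32. In bulk RNA, fewer dividing cells and less mitotic RNA per dividing cell cannot be told apart.

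The 3 genes of chromosome structure and separation all fell. Mki67, which encodes Ki-67, the surfactant-like coat of mitotic chromosomes and a standard marker of cycling cells, fell most, with 51.1, 54.9 and 59.3 FPKM in irradiated and 81.8, 84.8 and 71.2 FPKM in control cultures (-0.52 ± 0.071, adjusted p = 0.000618). Top2a, the topoisomerase that disentangles sister chromatids, had 114, 125 and 132 FPKM in irradiated and 176, 169.9 and 157 FPKM in control cultures (-0.44 ± 0.061, adjusted p = 0.000658). Every irradiated library lay below every control library for both genes. Espl1, which encodes separase, was lower by less (-0.27 ± 0.069, adjusted p = 0.0141).

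Of the 6 genes of the spindle assembly checkpoint and its target, 4 fell. Bub1b, which encodes the checkpoint protein BubR1, had 35.7, 37.1 and 42.7 FPKM in irradiated and 54.6, 53.0 and 54.3 FPKM in control cultures (-0.48 ± 0.067, adjusted p = 0.000669), the second largest decrease of the 42. The kinase gene Bub1 followed, with 26.0, 28.8 and 28.9 FPKM in irradiated and 37.0, 34.6 and 33.7 FPKM in control cultures (-0.32 ± 0.053, adjusted p = 0.00152). Cdc20, the activator of the anaphase-promoting complex that the checkpoint holds back, fell by less (-0.27 ± 0.074, adjusted p = 0.0194), as did Bub3 (-0.19 ± 0.059, adjusted p = 0.0326). Mad2l1, which encodes the Cdc20 inhibitor Mad2, did not pass (-0.14 ± 0.062, adjusted p = 0.107). Ttk, the kinase gene Mps1 that starts the checkpoint signal, had 12.8, 14.0 and 16.4 FPKM in irradiated and 17.3, 16.0 and 15.2 FPKM in control cultures, and these overlapped (-0.16 ± 0.078, adjusted p = 0.137). The checkpoint list thus held both one of the largest and the smallest decreases of all 42.

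**Figure D2:**
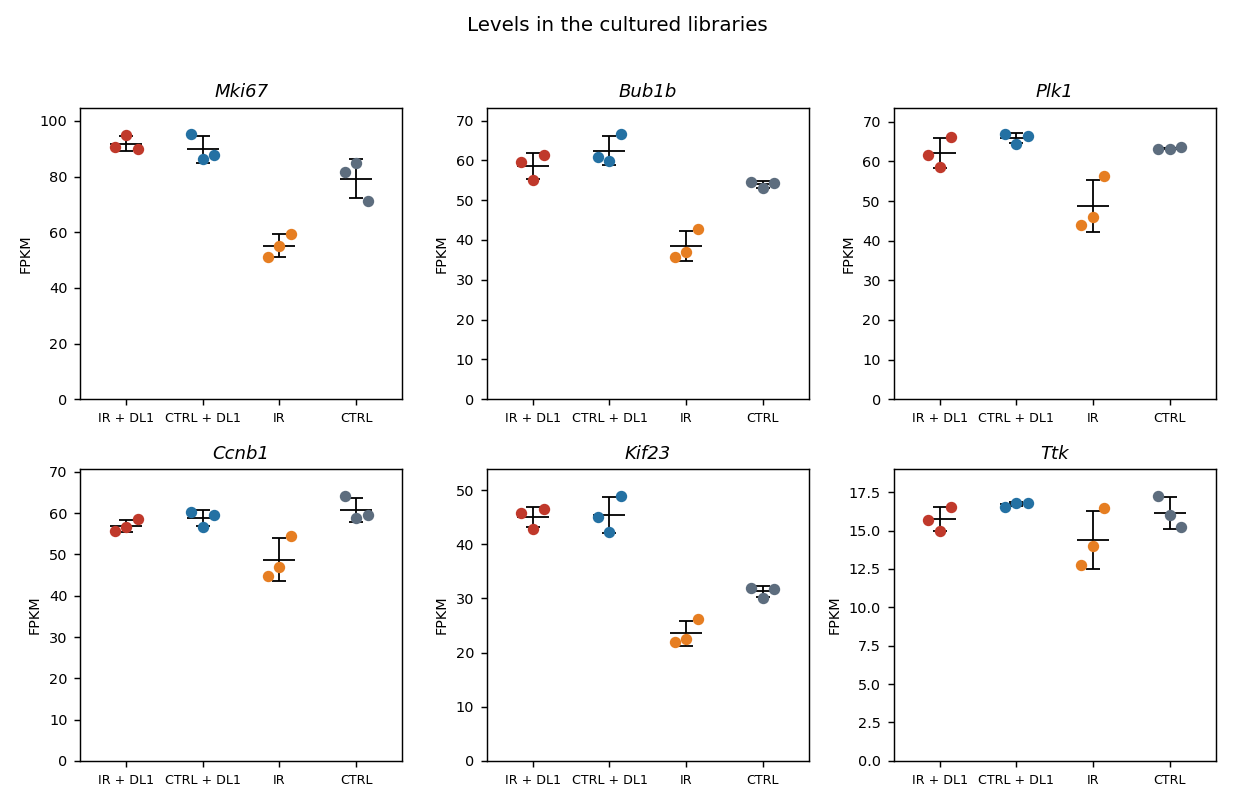
FPKM of 6 genes in each cultured library (points, 3 per group), with the mean (bar) and SD of each group. For Mki67, Bub1b, Plk1, Ccnb1 and Kif23 the irradiated libraries without DL1 are the lowest of the 4 groups, for Kif23 both groups with DL1 lie above both groups without, and for Ttk the irradiated and control libraries without DL1 overlap.

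Among the 7 mitotic entry genes 6 fell. Ccnb1, a cyclin B gene, had 44.7, 47.1 and 54.5 FPKM in irradiated and 64.2, 58.8 and 59.5 FPKM in control cultures (-0.32 ± 0.066, adjusted p = 0.00494). Its partner kinase gene Cdk1 had 38.4, 45.3 and 51.1 FPKM in irradiated and 56.0, 56.6 and 53.9 FPKM in control cultures (-0.31 ± 0.079, adjusted p = 0.0134). Both genes had no irradiated library above the lowest control library. Ccna2 (cyclin A2, -0.38 ± 0.082, adjusted p = 0.00605) had the largest change of this role, ahead of Ccnf, a ubiquitin ligase subunit gene (-0.35 ± 0.094, adjusted p = 0.0173). Cdc25c, a phosphatase gene of mitotic entry, fell (-0.34 ± 0.079, adjusted p = 0.00855) and so did Ccnb2 (-0.22 ± 0.06, adjusted p = 0.0174). The other phosphatase gene, Cdc25b, missed the threshold with 8.51, 8.004 and 9.53 FPKM in irradiated and 9.74, 9.65 and 11.2 FPKM in control cultures (-0.21 ± 0.075, adjusted p = 0.0528).

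Of the Aurora and Polo kinases and the chromosomal passenger complex, which corrects wrong attachments at the centromere, 5 of 6 fell. Aurka, the spindle pole kinase gene, had 37.7, 40.7 and 47.8 FPKM in irradiated and 54.6, 55.3 and 55.4 FPKM in control cultures (-0.39 ± 0.069, adjusted p = 0.00222). Plk1, the Polo kinase gene, had 43.9, 46.0 and 56.3 FPKM in irradiated and 63.1, 63.3 and 63.5 FPKM in control cultures (-0.38 ± 0.077, adjusted p = 0.00440). In both genes the control libraries lay close together while the irradiated ones were spread, replicate 3 nearest to the controls. Birc5, which encodes survivin, fell (-0.38 ± 0.069, adjusted p = 0.00248), as did the scaffold gene Incenp (-0.33 ± 0.066, adjusted p = 0.00447) and the borealin gene Cdca8 (-0.30 ± 0.069, adjusted p = 0.00871). Aurkb, the kinase of the same complex, had 51.7, 55.2 and 64.1 FPKM in irradiated and 63.8, 63.8 and 64.0 FPKM in control cultures. It did not pass (-0.17 ± 0.065, adjusted p = 0.0713), and irradiated replicate 3 stood level with the controls.

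All 6 centromere and kinetochore genes fell. Cenpe, a kinetochore motor gene, had 14.1, 15.8 and 16.3 FPKM in irradiated and 21.7, 20.7 and 17.9 FPKM in control cultures (-0.36 ± 0.069, adjusted p = 0.00331). Spc25, a subunit gene of the Ndc80 complex that grips microtubules, had 19.0, 21.4 and 22.0 FPKM in irradiated and 26.4, 27.0 and 26.0 FPKM in control cultures (-0.34 ± 0.059, adjusted p = 0.00214). The groups were separate for both. The other Ndc80 complex genes differed in size, Ndc80 at -0.32 ± 0.082 (adjusted p = 0.0146) and Nuf2 at -0.18 ± 0.062 (adjusted p = 0.0470). Cenpf was at -0.29 ± 0.076 and Cenpa, the centromeric histone gene, at -0.26 ± 0.068 (adjusted p = 0.0149 and 0.0158).

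Of the 9 kinesins and spindle assembly factors 8 fell. Nusap1, which bundles microtubules at chromosomes, had 25.7, 25.4 and 29.1 FPKM in irradiated and 37.6, 34.6 and 35.4 FPKM in control cultures (-0.41 ± 0.057, adjusted p = 0.000655). Kif20a, a kinesin gene of the late spindle, had 31.5, 35.1 and 38.9 FPKM in irradiated and 48.9, 46.4 and 45.8 FPKM in control cultures (-0.41 ± 0.064, adjusted p = 0.00107). Both were separate between the groups. Tpx2, the activator of Aurora A, fell (-0.35 ± 0.056, adjusted p = 0.00128), as did Kif11, the motor that pushes the spindle poles apart (-0.33 ± 0.069, adjusted p = 0.00554), Kif15 (-0.32 ± 0.058), Hmmr (-0.32 ± 0.055), Kif4 (-0.29 ± 0.048) and Kifc1 (-0.28 ± 0.075). Kif2c, a kinesin that depolymerizes microtubules at centromeres, did not pass, with 21.3, 20.7 and 25.9 FPKM in irradiated and 25.9, 25.6 and 24.4 FPKM in control cultures (-0.16 ± 0.072, adjusted p = 0.111).

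Of the 5 central spindle and cytokinesis genes 4 fell. Prc1, the microtubule bundler of the midzone, had 32.5, 33.4 and 40.2 FPKM in irradiated and 50.2, 45.7 and 45.6 FPKM in control cultures (-0.41 ± 0.077, adjusted p = 0.00291). Kif23 and Racgap1, which encode the 2 subunits of centralspindlin, fell by similar amounts (-0.40 ± 0.07, adjusted p = 0.00221, and -0.32 ± 0.056, adjusted p = 0.00217). Ect2, the exchange factor that centralspindlin brings to the furrow, fell by less (-0.19 ± 0.06, adjusted p = 0.0337). The furrow scaffold gene Anln missed the threshold (-0.15 ± 0.058, adjusted p = 0.0637).

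The 3 irradiated libraries stood in the same order in nearly every gene. Replicate 1 was lowest in 39 of 42 genes and replicate 3 highest in 39 of 42. Without replicate 3 all 42 genes passed, and without replicate 1 the count was 28. When only the irradiated and control cultures without DL1 were fitted, 24 of the 42 passed.

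**Figure D3:**
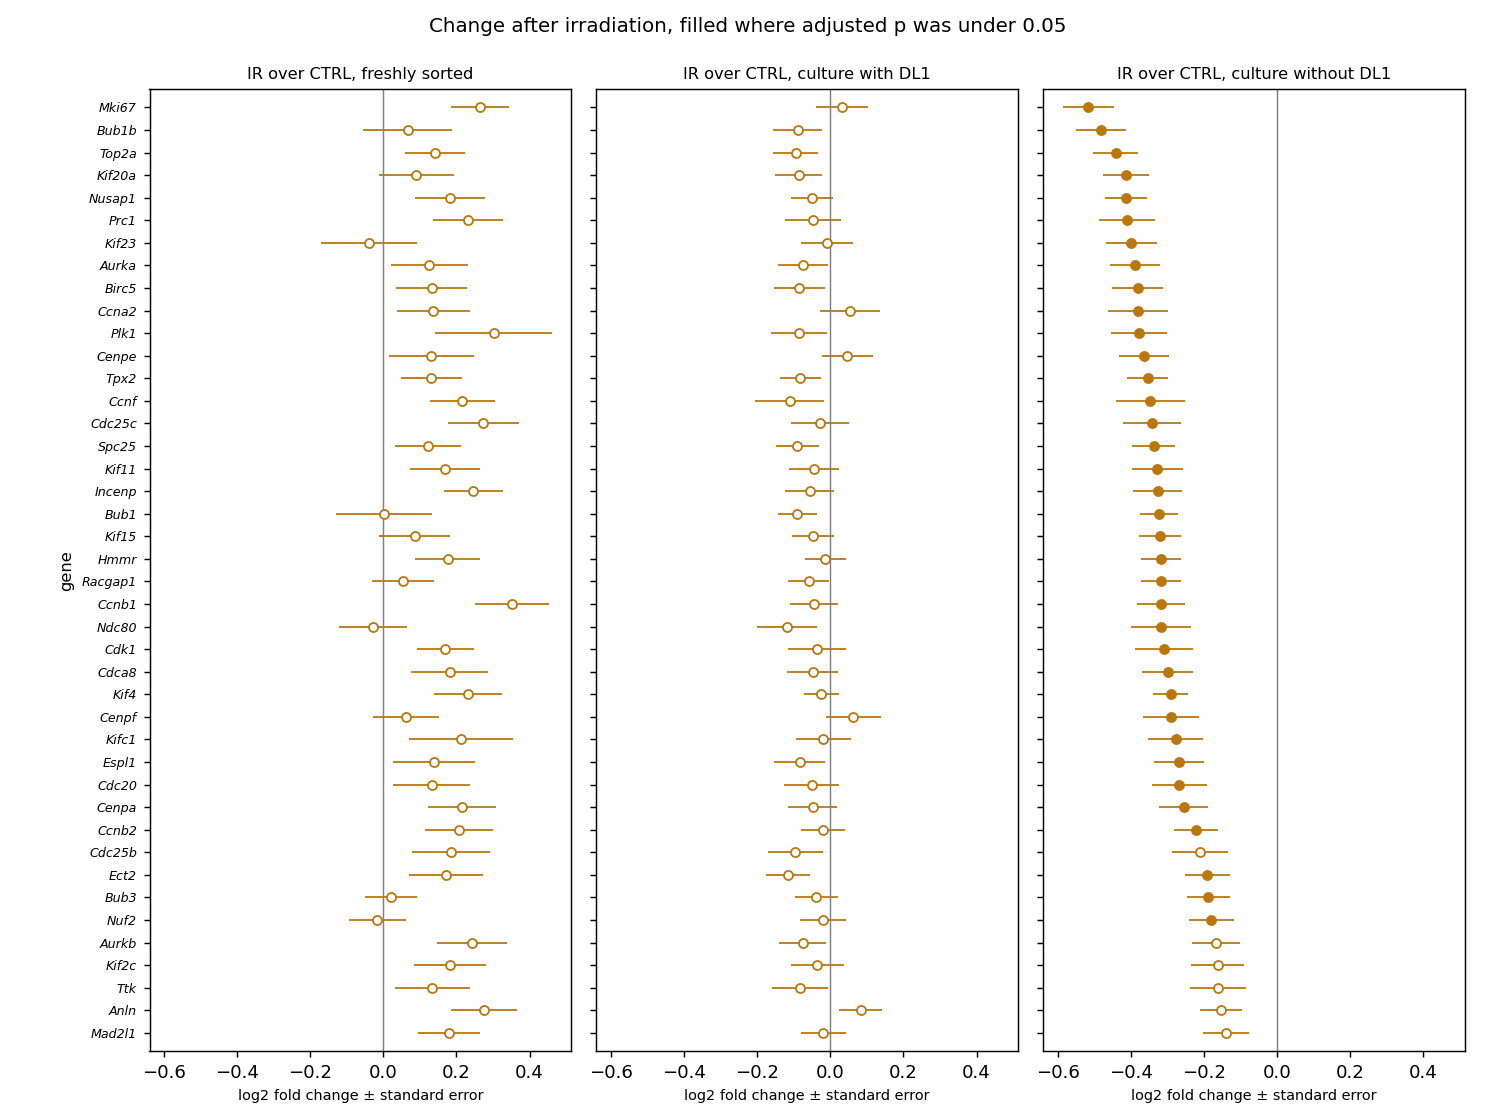
Log2 fold change of each of the 42 genes in irradiated over control cells (points, ± standard error, 3 libraries per group), freshly sorted (left), cultured with DL1 (middle) and cultured without DL1 (right), ordered by the change without DL1. Values without DL1 lie between -0.52 and -0.14 with 36 filled points, those with DL1 lie around 0 with no filled point, and those of freshly sorted cells lie mostly above 0 with no filled point.

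With DL1 in the culture, 0 of the 42 genes passed in irradiated against control cells, and 0 had an unadjusted p under 0.05 in limma. Over all genes tested, 3.16% passed in either direction, and at an unadjusted p under 0.05 there were 10.5% higher and 8.06% lower. The median log2 fold change of the 42 was -0.05, against -0.02 over all genes, 37 of the 42 values were negative, and the 95% intervals of all 42 together ran from -0.32 to 0.23. Mki67 had 90.6, 94.8 and 89.8 FPKM in irradiated and 95.2, 86.5 and 87.6 FPKM in control cultures with DL1 (0.03 ± 0.071). Bub1b had 59.6, 55.0 and 61.3 FPKM in irradiated and 60.9, 59.9 and 66.5 FPKM in control cultures with DL1 (-0.09 ± 0.067). Plk1 had 61.7, 58.7 and 66.1 FPKM in irradiated and 66.9, 64.3 and 66.5 FPKM in control cultures with DL1 (-0.08 ± 0.077). The mean of the irradiated cultures was the higher one for Mki67 and the lower one for Bub1b and Plk1, and the groups overlapped in all 3 genes. The most negative values were those of Ndc80 (-0.12 ± 0.082, 95% interval -0.30 to 0.06) and Ect2 (-0.11 ± 0.06, 95% interval -0.25 to 0.02), and the most positive that of Anln (0.08 ± 0.058, 95% interval -0.04 to 0.21). Leaving out any 1 library gave 0 genes as well.

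The difference between these changes after irradiation, with DL1 minus without, was tested as an interaction. It was positive for all 42 genes, with a median of 0.27 against 0.02 over all genes, but 0 of the 42 passed, where 0.0749% of all genes did. At an unadjusted p under 0.05 the count was 29 of 42, all positive, against 5.29% of all genes higher. Mki67 had the smallest p (0.55 ± 0.1, adjusted p = 0.0868), followed by Nusap1 (0.36 ± 0.081, adjusted p = 0.144) and Cenpe (0.41 ± 0.098, adjusted p = 0.175). At the other end, Ect2 (0.08 ± 0.086), Ttk (0.08 ± 0.11) and Aurkb (0.09 ± 0.092) differed least. The count turned on 1 library. Without irradiated replicate 3 of the cultures lacking DL1, 15 of the 42 passed, led by Mki67 (0.60, adjusted p = 0.0245), Nusap1 (0.42, adjusted p = 0.0245) and Aurka (0.41, adjusted p = 0.0245). Leaving out control replicate 3 without DL1 gave 1, and leaving out any other library gave 0.

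The next comparisons asked what DL1 did in each kind of culture. They share groups with those above, so the values of 1 group enter both. In irradiated cultures, 40 of the 42 genes rose with DL1 and 0 fell. Over all genes tested, 24.4% rose, with 2932 genes higher and 2041 lower (2028 and 2460 with median-ratio scaling). The median log2 fold change of the 42 was 0.36, against 0.06 over all genes. Summed over the 42 genes, the level was 2099, 2084 and 2175 FPKM in irradiated cultures with DL1, against 1480, 1596 and 1777 FPKM in irradiated cultures without it. The 2 that did not pass were Ttk (0.13 ± 0.078, adjusted p = 0.208) and Cdc25b (0.12 ± 0.075, adjusted p = 0.212), 2 genes that had not passed after irradiation either.

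Kif23, the motor subunit of centralspindlin, rose most with DL1 in irradiated cultures. It had 45.8, 42.9 and 46.5 FPKM in irradiated cultures with DL1 and 22.0, 22.6 and 26.2 FPKM in irradiated cultures without it (0.91 ± 0.07, adjusted p = 1.89e-06). Its lowest library with DL1 lay far above its highest library without. Mki67 had 90.6, 94.8 and 89.8 FPKM with DL1 and 51.1, 54.9 and 59.3 FPKM without it in irradiated cultures (0.73 ± 0.071, adjusted p = 9.49e-06). Bub1b had 59.6, 55.0 and 61.3 FPKM with DL1 and 35.7, 37.1 and 42.7 FPKM without it in irradiated cultures (0.60 ± 0.067, adjusted p = 2.89e-05). Nusap1 followed (0.54 ± 0.057, adjusted p = 1.78e-05), and the groups did not overlap for any of these 4.

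By role, DL1 in irradiated cultures raised 6 of 7 mitotic entry genes, and Ccnf rose most among them, with 38.7, 36.9 and 44.2 FPKM with DL1 and 24.6, 26.0 and 32.6 FPKM without it (0.52 ± 0.094, adjusted p = 0.00102). All 6 Aurora, Polo and passenger complex genes rose, from 0.33 for Aurkb to 0.47 for Birc5. Aurkb, which had not passed after irradiation, passed here with 70.5, 69.3 and 75.0 FPKM with DL1 and 51.7, 55.2 and 64.1 FPKM without it (adjusted p = 0.00176). Of the checkpoint genes 5 of 6 rose, with Cdc20 at the low end (0.24 ± 0.074, adjusted p = 0.0213). All 6 centromere and kinetochore genes rose, from 0.33 for Cenpa to 0.45 for Spc25 and Cenpe. All 9 kinesins and spindle assembly factors rose, among them Kifc1 (0.46 ± 0.075) and Kif4 (0.41 ± 0.048). So did all 5 central spindle genes and all 3 genes of chromosome structure and separation, with Top2a at 0.47 ± 0.061.

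In control cultures, DL1 raised 8 of the 42 genes and lowered 0. Over all genes tested, 14% rose, a share not far from that of the 42, with 1677 genes higher and 1479 lower (1254 and 1716 with median-ratio scaling). The median log2 fold change of the 42 was 0.12, against 0.04 over all genes. The 8 were Kif23, Aurkb, Spc25, Nuf2, Nusap1, Bub1b, Ccnf and Kif4, which come from 6 of the 7 roles. Kif23 stood apart, with 45.1, 42.2 and 48.9 FPKM in control cultures with DL1 and 32.0, 30.1 and 31.8 FPKM in control cultures without it (0.52 ± 0.07, adjusted p = 0.000168). Aurkb had 76.1, 74.1 and 76.0 FPKM with DL1 and 63.8, 63.8 and 64.0 FPKM without it in control cultures (0.24 ± 0.065, adjusted p = 0.0175). Neither gene's groups overlapped. Ccnf (0.28 ± 0.094), Bub1b (0.21 ± 0.067), Nuf2 (0.20 ± 0.062), Spc25 (0.20 ± 0.059), Nusap1 (0.18 ± 0.057) and Kif4 (0.14 ± 0.048) passed with adjusted p between 0.0235 and 0.0450. Mki67 did not pass (0.18 ± 0.071, adjusted p = 0.0822), and 5 genes had negative values, the lowest being Ccna2 (-0.12 ± 0.082, adjusted p = 0.302). This count ranged from 1 gene without control replicate 1 or 3 with DL1 to 17 when only the 2 control groups were fitted, and Kif23 was the 1 gene that passed in every alternative.

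**Figure D4:**
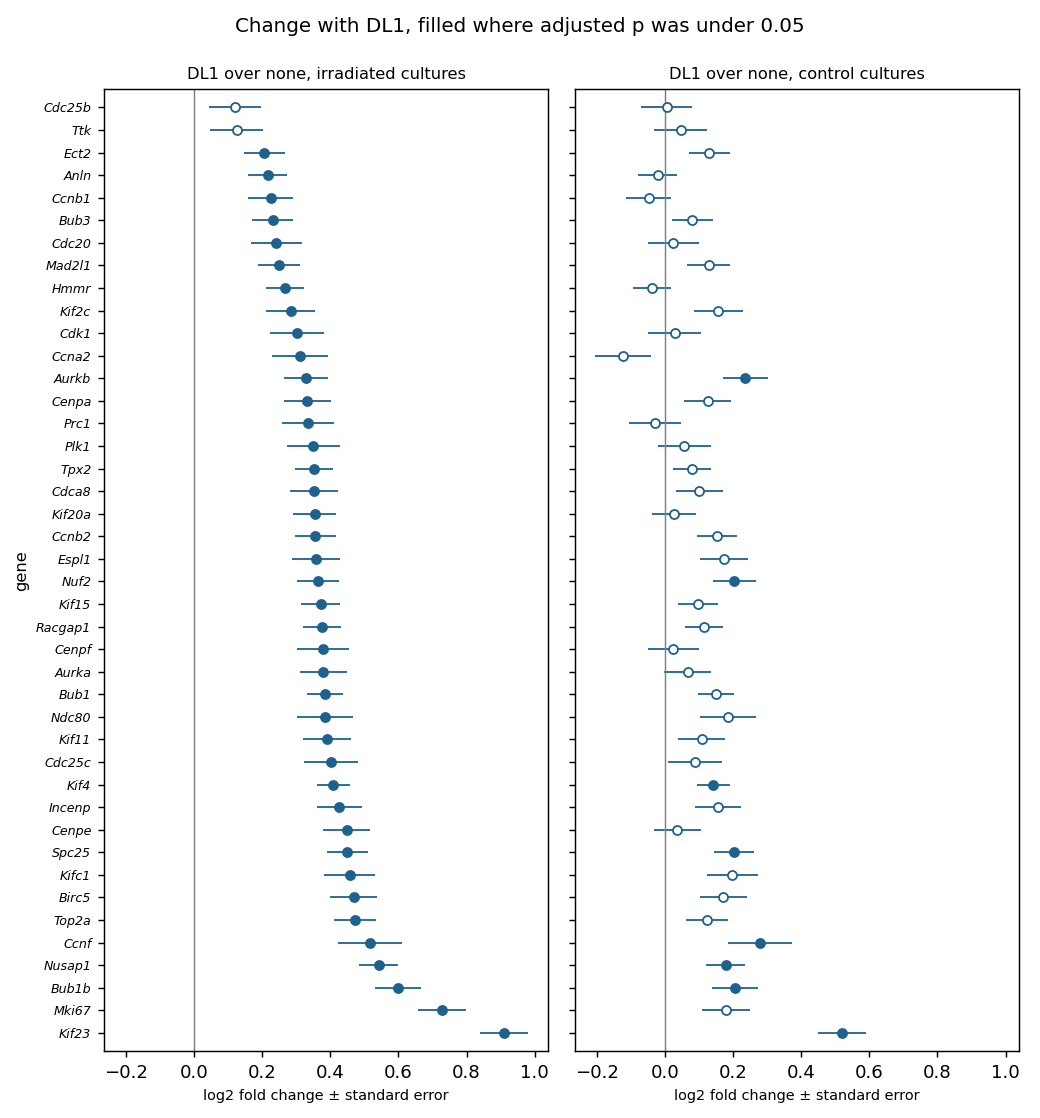
Log2 fold change of each of the 42 genes with DL1 over without (points, ± standard error, 3 libraries per group), in irradiated cultures (left) and control cultures (right), ordered by the change in irradiated cultures. In irradiated cultures 40 points are filled and lie between 0.21 and 0.91, in control cultures 8 are filled, and Kif23 is the highest in both.

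Irradiated cultures with DL1 were also set against control cultures without it, groups that differ in both respects. Kif23 rose (0.51 ± 0.07, adjusted p = 0.000297), and it was the 1 gene of the 42 that passed, where 11.3% of all genes rose. The median over the 42 was 0.06, against 0.02 over all genes, and 8 genes had an unadjusted p under 0.05, all higher, where 18.8% of all genes were. Mki67 came next in size, with 90.6, 94.8 and 89.8 FPKM in irradiated cultures with DL1 and 81.8, 84.8 and 71.2 FPKM in control cultures without it (0.21 ± 0.071, adjusted p = 0.0523). Ccnb1 was the most negative (-0.09 ± 0.066, 95% interval -0.24 to 0.05). The count was 6 without irradiated replicate 1 of the cultures lacking DL1 and 5 without their replicate 3, which enter only through the shared estimate of the spread, and 3 when the 2 groups were fitted alone.

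In freshly sorted cells, 0 of the 42 genes passed between irradiated and control mice. Over all genes tested, 0.101% passed in either direction. Of the 42 values, 39 were positive, with a median of 0.17 against 0.01 over all genes. At an unadjusted p under 0.05 there were 10 higher and 0 lower, where 4.1% of all genes were higher, and 13 genes had every irradiated library above every control library, against 7.42% of all genes. Summed over the 42 genes, the level was 1241, 1233 and 1140 FPKM in irradiated and 1104, 1120 and 1005 FPKM in control cells, and the lowest irradiated and highest control libraries were close. Control replicate 2 held 7.05% of its FPKM in ribosomal and small RNA rows, against 1.48 to 1.99% in the other libraries. As a share of FPKM without those rows, the 42 genes made up 0.183, 0.177 and 0.161% in irradiated libraries. The shares in control libraries were 0.161, 0.165 and 0.146%, so the groups overlapped.

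Ccnb1 had the largest value, with 16.2, 15.7 and 16.8 FPKM in freshly sorted irradiated and 12.2, 14.3 and 11.1 FPKM in control cells (0.35 ± 0.1, adjusted p = 0.457). Mki67 had 122, 116 and 105 FPKM in irradiated and 94.9, 95.1 and 94.2 FPKM in control cells (0.27 ± 0.08, adjusted p = 0.483). Neither overlapped between the groups. Plk1 had 16.0, 15.5 and 14.6 FPKM in irradiated and 13.1, 15.4 and 9.15 FPKM in control cells (0.30 ± 0.16, adjusted p = 0.814), and here the groups overlapped. By role, the medians were highest in the mitotic entry genes (median 0.21, 7 of 7 positive) and the Aurora, Polo and passenger genes (median 0.21, 6 of 6 positive), and lowest in the checkpoint genes (median 0.10) and kinetochore genes (median 0.09, 4 of 6 positive). Kif23, Ndc80 and Nuf2 had negative values, from -0.04 to -0.02. Control replicate 3 was lowest of its group in 37 of 42 genes, and irradiated replicate 3 lowest of its group in 32 of 42. No alternative setting gave a gene that passed.

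Other mitotic genes, 107 tested genes of the anaphase-promoting complex, condensin and cohesin, further kinetochore proteins, upstream regulators and further spindle proteins, were counted in the same comparisons. In irradiated cultures without DL1, 62 of the 107 fell and 1 rose, with a median log2 fold change of -0.20, where 15.9% of all genes fell. The lowest p belonged to Cep55, a gene of the final abscission step, with 19.2, 19.1 and 21.5 FPKM in irradiated and 27.4, 27.8 and 26.0 FPKM in control cultures (-0.42 ± 0.051, adjusted p = 0.000311). The kinase gene Melk (-0.38 ± 0.051), the anaphase-promoting complex subunit gene Cdc27 (-0.36 ± 0.057) and the condensin subunit gene Ncaph (-0.38 ± 0.061) followed. The 1 that rose was Anapc13, another subunit gene of the anaphase-promoting complex (0.19 ± 0.065, adjusted p = 0.0453). By list, 21 of 24 further spindle, centrosome and midbody genes fell, against 7 of 17 of the anaphase-promoting complex. With DL1, 80 of the 107 rose in irradiated cultures, against 24.4% of all genes, and 23 in control cultures, against 14%. After irradiation 0 passed in cultures with DL1, and 13 had an unadjusted p under 0.05 in limma. Of all genes tested there, 10.5% were higher and 8.06% lower at that threshold. In freshly sorted cells 0 passed, where 0.101% of all genes passed in either direction. There 7 had an unadjusted p under 0.05 in limma, counted in either direction. The share of all genes at that threshold is given only for the higher direction, 4.1%, so the count of 7 is not set against it.

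Macrophage and granulocyte markers moved opposite to the mitotic genes after irradiation without DL1 and with DL1 in irradiated cultures. Their part in the result was not tested. Of all 12011 genes tested, 1659 rose in irradiated cultures without DL1 and 2041 fell with DL1 in irradiated cultures. In irradiated cultures without DL1 against control cultures, 9 of 9 tested macrophage genes rose (median 1.15), and their summed level was 784, 616 and 499 FPKM in irradiated and 320, 251 and 394 FPKM in control cultures. Among these irradiated libraries, the macrophage, megakaryocyte and lineage antigen sums were highest in replicate 1 and lowest in replicate 3. The neutrophil, mast cell and T and innate lymphoid sums were highest in replicate 2. The summed level of the 42 mitotic genes was lowest in replicate 1 and highest in replicate 3, and how these orders relate was not tested. Neutrophil and granulocyte genes rose in 8 of 10 (median 0.75), with sums of 8075, 9441 and 7054 FPKM in irradiated and 4347, 4455 and 4039 FPKM in control cultures. Mast cell and basophil genes rose in 5 of 8, with sums of 148, 180.4 and 169 FPKM in irradiated and 93.2, 104 and 92.2 FPKM in control cultures. Megakaryocyte genes rose in 3 of 4, and T and innate lymphoid genes in 3 of 6, with sums of 65.8 to 83.4 FPKM in irradiated and 38.0 to 41.2 FPKM in control cultures. Of the macrophage list, Marco averaged under 0.5 FPKM in every group. With DL1 in irradiated cultures, 4 of 8 mast cell and basophil genes fell and 1 rose, and 2 of 6 T and innate lymphoid genes fell and 3 rose. With DL1, 9 of 9 macrophage and 10 of 10 neutrophil genes fell in irradiated cultures, and macrophage sums were 192 to 207 FPKM in irradiated and 134 to 155 FPKM in control cultures with DL1. Neutrophil sums were 4374 to 5527 FPKM in irradiated and 2808 to 2986 FPKM in control cultures with DL1. There 7 of 10 neutrophil genes rose after irradiation, as did 302 of all 12011 genes, while 0 of the 42 mitotic genes passed. In freshly sorted cells the macrophage sums were 31.4 to 82.9 FPKM in irradiated and 38.2 to 54.3 FPKM in control cells. There 0 macrophage and 0 neutrophil genes passed, where 0.101% of all genes passed in either direction. In either direction, 1 of each list had an unadjusted p under 0.05 in limma, and 4.1% of all genes were higher at that threshold. Of the 6 megakaryocyte genes tested there, 1 rose, the P-selectin gene Selp (1.36 ± 0.132, adjusted p = 0.00766). Of the 7 T and innate lymphoid genes tested there, 1 rose, the cytotoxic granule gene Nkg7 (0.78 ± 0.0926, adjusted p = 0.0238), and the sums of that list did not overlap, at 161 to 195 FPKM in irradiated and 105 to 116 FPKM in control cells.

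The levels of the 42 genes in freshly sorted and cultured control cells were compared as a description only. The tables were normalized separately, and 1 holds only cultured and the other only freshly sorted cells. In cultured controls without DL1, Top2a (168 ± 9.56 FPKM, SD, n = 3), Birc5 (118 ± 4.24 FPKM) and Ccna2 (92.7 ± 3.31 FPKM) led, with Cenpf (9.63 ± 1.14 FPKM), Cdc25b (10.2 ± 0.871 FPKM) and Cdc25c (10.7 ± 0.544 FPKM) lowest, and those last 3 lay within their spread. In freshly sorted controls, Top2a (103 ± 5.11 FPKM), Mki67 (94.8 ± 0.476 FPKM) and Birc5 (67.9 ± 6.13 FPKM) led, and Kifc1 (0.941 ± 0.0933 FPKM) was lowest. The median ratio of cultured to freshly sorted level was 1.92 for the 42 genes and 1.14 for the 11415 genes with at least 1 FPKM in both control groups. A ratio above 2 was found in 20 of the 42 genes, against 20.2% of all genes.

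The ratio differed among the 42. It was 5.05 for Plk1, 4.85 for Ccnb1, 4.64 for Aurka, 4.36 for Cdc20, 4.09 for Kif20a and 4.06 for Kif2c. By contrast it was 1.05 for Ndc80, 0.934 for Cenpf and 0.837 for Mki67. Taken within each library, which removes the scale of the table, Plk1 stood at 35.8 to 40.4% of the level of Top2a in cultured controls and at 9.30 to 15.2% in freshly sorted controls. Ccnb1 stood at 34.6 to 37.8% of Top2a in cultured and 11.3 to 14.1% in freshly sorted controls. Mki67 went the other way, at 45.2 to 49.9% of Top2a in cultured and 87.6 to 95.7% in freshly sorted controls, so none of these ranges overlapped between the tables. Kifc1 had the highest ratio, 15.1, but it has a close copy, Kifc5b, in the reference gene table, and reads shared between them leave its level uncertain.

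**Figure D5:**
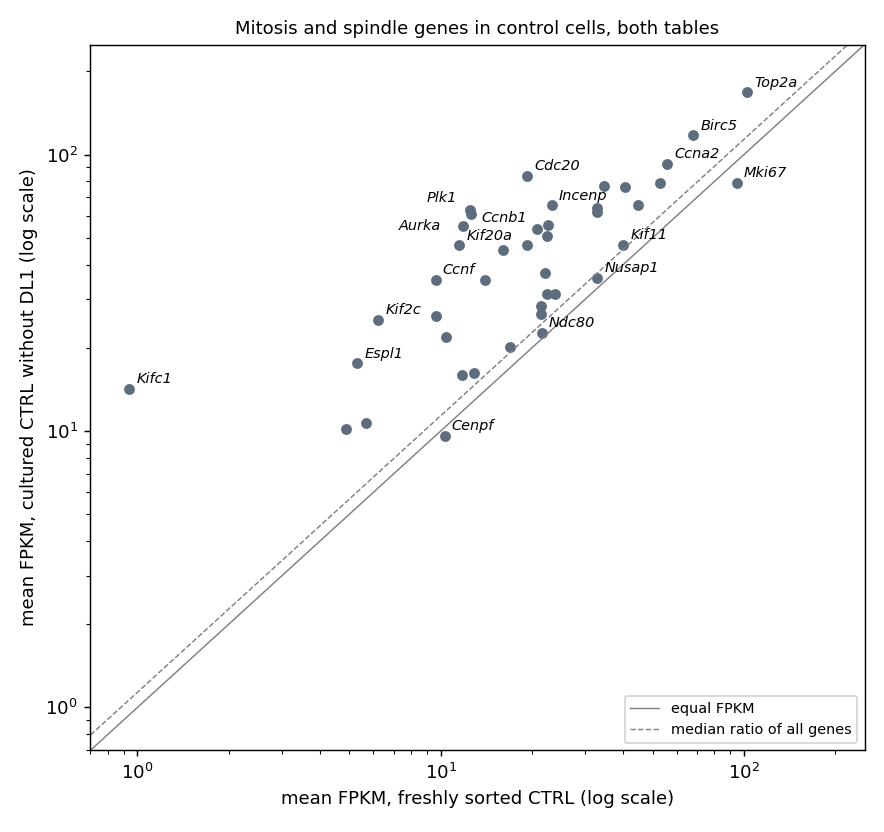
Mean FPKM of each of the 42 genes in cultured control cells without DL1 (vertical axis) against freshly sorted control cells (horizontal axis), both on log scales, 3 libraries each, with lines for equal FPKM and for the median ratio of all genes, 1.14. Plk1, Ccnb1, Aurka, Cdc20, Kif20a and Kif2c lie 4.06 to 5.05 times above equality, Mki67 and Cenpf lie below it, and Kifc1 stands alone.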

How the data were processed

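The authors deposited FPKM values in 2 tables of 25629 rows, and per the submitters' processing notes they used TopHat 1.4.1, Cufflinks 1.3.0 and Cuffdiff. Those notes name the human build hg19 although the cells are from mice, and the build, annotation and filters used are not given in the sources used here. Per the labels, RNA was taken with miRNeasy columns and made into TruSeq RNA v2 libraries. The 55 rows sharing a name were reduced to the row with the higher mean, and 0 columns were left unmapped. The column IR1DL1, whose number stands in another place than in its group's other columns, was read as irradiated replicate 1 with DL1. The source field of the controls names irradiated cells, so titles and conditions were used.

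Genes with a mean of at least 1 FPKM over a table were fitted on the log2(FPKM + 1) scale, which understates changes of low genes, by limma 3.58.1 (trend option, R 4.3.3). The 4 cultured groups shared a fit, and p-values are two-sided, adjusted over all genes at a threshold of 0.05. The tables were normalized separately and no test crosses them. Depth is known only relative to 1 library, so no counting interval is given. The script was tested on simulated data. Across genes, r within a group was 0.996 to 0.999 in cultures and 0.992 to 0.995 in fresh cells, and none were duplicates. Same-numbered libraries deviated together in the comparison of DL1 in irradiated cultures (r from 0.145 to 0.355), and a replicate block left its count at 40. Members, lists and tests were chosen with earlier results of these data known. Genes were named by the largest or most divergent changes within each role, and for the other lists by the smallest p. Of the genes in the other lists, 3 had no row and 4 were matched by another name. The settings varied were the pseudocount (0.1 and 5), the filter (none and a mean of 5 FPKM), median-ratio scaling, removal of ribosomal and small RNA rows, a replicate block, the 2 groups alone and leaving out each library. Promoter windows came from RefSeq with Python 3.11.15.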

Additional observations from a re-analysis of the deposited data

How the results depend on the processing

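No called value of a single gene changed direction under any alternative; of the values of single genes under the alternatives, 5353 kept their side of the threshold, 69 gained and 121 lost the call. After irradiation without DL1 the count of 36 became 24 to 38 in the settings that keep all libraries, with 24 genes passing in every alternative, and 27 to 42 when 1 library was left out. The count of 40 with DL1 in irradiated cultures became 37 to 40, and 37 to 41 with 1 library left out. For DL1 in control cultures the count of 8 became 4 with median-ratio scaling, 2 without ribosomal and small RNA rows and 17 with only the 2 groups, and 1 to 16 with 1 library left out. The cause was not tested. Over all genes, 1254 of 12004 rose in that comparison with median-ratio scaling and 1321 of 11923 without ribosomal and small RNA rows. The interaction gave 0 in every setting that keeps all libraries and 0 to 15 with 1 left out. Irradiated with DL1 against control without gave 3 with median-ratio scaling, 2 with the replicate block and 3 with only the 2 groups, against 1, and 1 to 6 with 1 library left out. Irradiation gave 0 in freshly sorted cells and 0 in cultures with DL1 in every alternative. The replicate block changed no other count. Without ribosomal and small RNA rows, the genes of the whole table that passed were 1111 higher and 1388 lower in that last cultured comparison, against 1361 and 1134, and 14 higher and 10 lower in freshly sorted cells, against 9 and 4. With 3 libraries per group, standard errors of the 42 genes ran from 0.048 to 0.16. These are not limits of detection, and shifts larger than them could also fail to pass. In freshly sorted cells the 95% intervals of the 42 genes together ran from -0.34 to 0.67.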

Other observations

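S phase genes, which copy the DNA before mitosis, moved in the same direction as the mitotic genes in the cultures without DL1 after irradiation and with DL1 in irradiated cultures. Of 26 such genes, 22 fell and 0 rose in irradiated cultures without DL1 (median -0.25), and 24 rose with DL1 in irradiated cultures (median 0.25). Of all genes tested, 15.9% fell in the first of these comparisons and 24.4% rose in the second. Ccne1, the G1/S cyclin E1, had 12.7, 14.0 and 14.9 FPKM in irradiated and 19.4, 21.8 and 21.3 FPKM in control cultures without DL1 (-0.55 ± 0.071, adjusted p = 0.00042 in limma). It had 25.0, 23.6 and 21.4 FPKM in irradiated cultures with DL1 (0.71 ± 0.071 against irradiated cultures without it, adjusted p = 1.13e-05). Uhrf1, which carries DNA methylation through replication, fell in irradiated cultures without DL1 (-0.36 ± 0.053, adjusted p = 0.000848). After irradiation in cultures with DL1, 0 of the 26 passed, but all 26 values were negative (median -0.11) and 5 had an unadjusted p under 0.05 in limma, against a median of -0.05 and 0 with an unadjusted p under 0.05 for the 42 mitotic genes. Of all genes tested there, 8.06% were lower at that threshold. In freshly sorted cells 0 of the 26 passed, 0 had an unadjusted p under 0.05 in limma, and the median was 0.05.

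Of 14 tested quiescence-associated and cell cycle inhibitor genes, 5 rose and 0 fell in irradiated cultures without DL1, where 1659 of all 12011 genes rose. Btg1, an antiproliferative gene, had 41.9, 34.3 and 30.5 FPKM in irradiated and 24.6, 21.2 and 25.7 FPKM in control cultures (0.55 ± 0.1, adjusted p = 0.00283), and it fell with DL1 in irradiated cultures (-0.76 ± 0.1, adjusted p = 0.000116). Btg2 went the other way with DL1, higher in irradiated cultures (0.69 ± 0.085, adjusted p = 5.61e-05) and in control cultures (0.77 ± 0.085, adjusted p = 3.81e-05). Of the 14 genes, 5 rose and 4 fell with DL1 in irradiated cultures, and 4 rose and 1 fell in control cultures. Of all 12011 genes tested, 2932 rose and 2041 fell with DL1 in irradiated cultures, and 1677 rose and 1479 fell in control cultures. The others that rose in irradiated cultures without DL1 were Rbl2, Cdkn2c, Btg2 and Txnip. Cdkn2c, an inhibitor of the G1 kinases Cdk4 and Cdk6, had 21.6, 21.3 and 21.0 FPKM in freshly sorted irradiated and 12.1, 12.01 and 11.9 FPKM in control cells (0.78 ± 0.072, adjusted p = 0.00742), and it was the 1 gene of 15 in this list that passed there. It was higher in irradiated cultures with DL1 as well, at 12.4, 11.05 and 11.9 FPKM against 9.58, 9.08 and 9.23 FPKM in control cultures with DL1, without passing (0.31 ± 0.077, adjusted p = 0.0507), and the mitotic genes did not pass in either of those comparisons.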
